A study of Mus musculus with 2 samples.

Results

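AMPA receptors are the ligand-gated channels that carry most fast excitatory transmission in the brain, and their pore-forming subunits are encoded by 4 genes, Gria1 to Gria4. All rows whose gene identifier maps to one of these symbols were taken from the gene and transcript tables, which gave 4 of 43346 genes and 25 of 103639 transcripts. The RNA was poly(A)-selected from the brain of 1 male C57BL/6J mouse aged 10 weeks, an inbred laboratory strain with no treatment or modified allele named in the labels. It was sequenced in 2 libraries, which the labels call technical replicates 2 and 1 of 1 biological replicate, and replicate 2 was made later than the publication the labels name. Both libraries come from 1 animal, so the spread given here is technical, and with 1 library on each side no test of the difference between them was possible. When a library was made and which library it is cannot be told apart.

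Each receptor is a tetramer of subunits. GluA1, GluA2, GluA3 and GluA4 are the products of Gria1, Gria2, Gria3 and Gria4, and the presence of an edited GluA2 makes the channel nearly impermeable to calcium. Each gene holds a pair of mutually exclusive exons, flop and flip, which encode a short stretch of the ligand-binding domain next to the last membrane segments. The choice between them is known to set how fast the receptor desensitises.

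In each of the 4 genes, the exon of the pair that comes first in the direction of transcription was called flop and the second flip. The names thus rest on this order and were not read from the annotation. Every one of these 8 exons was 115 bases long in the reference annotation. The flop and flip exons of Gria1 lie at chr11:57309769-57309883 and chr11:57310608-57310722 on the plus strand (GRCm38, the assembly also called mm10). Those of Gria2 lie at chr3:80691320-80691434 and chr3:80690404-80690518, and those of Gria4 at chr9:4432773-4432887 and chr9:4427030-4427144, all on the minus strand. The sequences of these 3 pairs are shown because the flip and flop shares of these genes differed most between the libraries. They are given on the transcribed strand from the GENCODE M21 transcripts, and capitals mark the bases at which the flop and the flip exon of the same gene differ.
Gria1 flop: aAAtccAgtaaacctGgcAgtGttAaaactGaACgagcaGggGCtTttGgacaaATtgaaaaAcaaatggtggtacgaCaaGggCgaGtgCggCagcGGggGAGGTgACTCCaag
Gria1 flip: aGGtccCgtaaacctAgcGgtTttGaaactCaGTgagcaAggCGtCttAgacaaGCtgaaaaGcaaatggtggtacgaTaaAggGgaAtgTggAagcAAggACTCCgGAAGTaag
Gria2 flop: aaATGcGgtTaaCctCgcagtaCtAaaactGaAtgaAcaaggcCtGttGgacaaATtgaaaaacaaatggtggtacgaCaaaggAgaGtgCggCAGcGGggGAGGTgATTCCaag
Gria2 flip: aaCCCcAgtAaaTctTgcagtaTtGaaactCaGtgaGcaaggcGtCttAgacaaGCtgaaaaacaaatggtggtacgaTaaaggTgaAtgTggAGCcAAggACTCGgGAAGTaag
Gria4 flop: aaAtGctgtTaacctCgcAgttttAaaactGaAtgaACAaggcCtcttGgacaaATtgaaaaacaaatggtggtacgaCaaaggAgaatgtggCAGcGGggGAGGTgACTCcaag
Gria4 flip: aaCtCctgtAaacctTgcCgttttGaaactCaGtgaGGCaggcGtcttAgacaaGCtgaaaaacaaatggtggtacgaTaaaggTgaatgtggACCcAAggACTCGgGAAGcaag
Flop and flip differed at 36 of 115 bases in Gria1 and in Gria2, at 32 in Gria3 and at 31 in Gria4. Between genes, the flop exons shared 101 to 109 bases and the flip exons 101 to 106, so an exon resembled its counterpart in another subunit gene more than its partner in the same gene. The GC content of the flip exon was 47.8% in Gria1, 44.3% in Gria2, 46.1% in Gria3 and 47.0% in Gria4. That of the flop exon was 50.4%, 47.0%, 47.8% and 44.3% in the same order of genes.

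Replicate 2 held 17828480 counts, 0.135% of them in the 4 genes, and replicate 1 held 18302506, with 0.197% in the 4 genes. Of 11 fixed cell type lists with 3 markers each, those of neurons, glutamatergic neurons, GABAergic neurons, astrocytes, oligodendrocytes and microglia had every marker at 1 TPM or more in both libraries. TPM is a level per transcript length whose sum is equal in both libraries. Of the endothelial markers 2, and of the oligodendrocyte precursor and cerebellar markers 1 each, reached 1 TPM in both. Members of 1 list often differed in opposite directions, so a sum stands for its most abundant genes. The glutamatergic neuron markers summed to 1321 TPM in replicate 2 and 278.8 TPM in replicate 1, with Slc17a7 at 466.2 and 25.5 TPM but Neurod6 at 64.3 and 86.2 TPM. The general neuron markers summed to 3464 and 3975 TPM, with Snap25 at 2764 and 3457 TPM, Syt1 at 569.7 and 503.0 TPM, and Rbfox3 at 130.5 and 14.7 TPM. The astrocyte markers summed to 429.8 and 468.5 TPM, with Slc1a2 at 346.1 and 396.7 TPM but Aldh1l1 at 34.8 and 2.1 TPM. The endothelial markers summed to 156.2 and 37.9 TPM, and the oligodendrocyte precursor markers to 22.8 and 9.54 TPM. The cerebellar list summed to 12.9 and 4.87 TPM, nearly all of it Cbln1 (12.5 and 4.5 TPM), with the Purkinje cell gene Pcp2 at 1 and 0 counts and the granule cell gene Gabra6 at 2 and 11. The 3 liver markers summed to 2.26 and 0.08 TPM and the 3 skeletal muscle markers to 10.1 and 0.06. The part of these marker differences in the results below was not tested. Of all TPM, mitochondrial genes and a nuclear copy of them took 29.1% in replicate 2 against 63.2% in replicate 1, which lowers every other TPM in replicate 1.

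Gria2 was the most abundant subunit gene in both libraries, and the order of the others differed between them. Gria2 (ENSMUSG00000033981.10, chromosome 3, 80681450 to 80802835, minus strand) had 192.5 TPM in replicate 2 and 244.8 TPM in replicate 1 (218.7 ± 37.0, SD, n = 2). Gria3 (ENSMUSG00000001986.12, chromosome X, 41400854 to 41678601, plus strand) had 77.9 and 90.4 TPM (84.1 ± 8.84). Its level was 0.404 times that of Gria2 in replicate 2 and 0.369 times in replicate 1.

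Gria1 (ENSMUSG00000020524.12, chromosome 11, 57011387 to 57330244, plus strand) had 113.1 TPM in replicate 2 and 50.1 TPM in replicate 1 (81.6 ± 44.5, SD, n = 2). Gria4 (ENSMUSG00000025892.11, chromosome 9, 4417896 to 4796234, minus strand) had 54.9 TPM in replicate 2 and 80.5 TPM in replicate 1 (67.7 ± 18.1, SD, n = 2). In replicate 2 the order was Gria2, Gria1, Gria3, Gria4, and in replicate 1 it was Gria2, Gria3, Gria4, Gria1. The values of Gria2 did not overlap those of another member, whereas those of Gria1, Gria3 and Gria4 overlapped. Within a library of bulk tissue, the level of a gene does not tell the number of expressing cells from the RNA per cell. The differences between these libraries are between technical replicates of 1 biological replicate.

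Among 43346 genes, Gria2 ranked 670th by TPM in replicate 2 and 224th in replicate 1, and Gria1 ranked 1220th and 1644th. Gria3 stood at ranks 1906 and 870, and Gria4 at ranks 2772 and 999. All 4 genes were above 93.6% of genes in replicate 2 and above 96.2% in replicate 1.

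**Figure D1:**
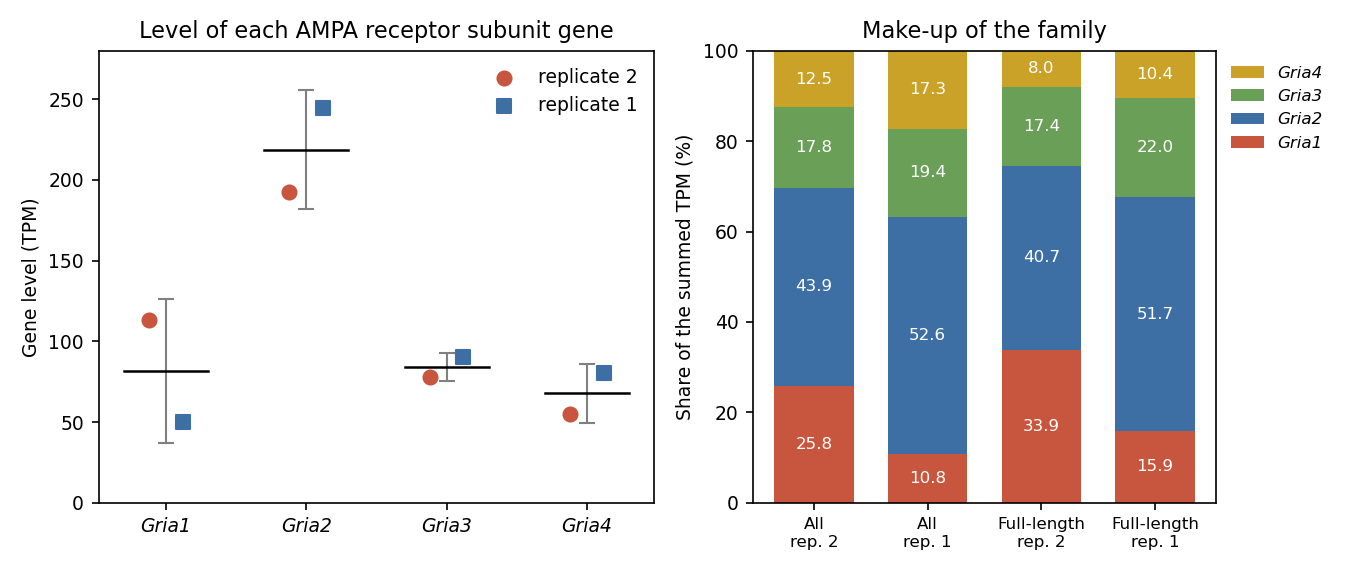
Left, gene level in TPM of the 4 subunit genes in replicate 2 (circles) and replicate 1 (squares), with the mean (black line) and SD (grey bar, n = 2). Right, share of each gene in the summed TPM of the family, over all transcripts and over full-length coding transcripts, with replicate 2 left of replicate 1 in each pair; Gria1 takes 25.8% in replicate 2 and 10.8% in replicate 1.

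The make-up of the family does not depend on a scale that is the same for all genes of a library. It does depend on differences between the libraries that vary from gene to gene, such as those with GC content described below. The GC content of Gria1 was 48.6%, against 40.8 to 43.8% for Gria2, Gria3 and Gria4. The part of this in the shares was not tested. The summed level of the 4 genes was 438.4 TPM in replicate 2, against 465.7 TPM in replicate 1 (452 ± 19.4, SD, n = 2), a ratio of 0.941. Gria2 held 43.9% of it in replicate 2 and 52.6% in replicate 1 (48.2 ± 6.11%). Gria1 held 25.8% and 10.8% (18.3 ± 10.6%), Gria3 17.8% and 19.4% (18.6 ± 1.16%), and Gria4 12.5% and 17.3% (14.9 ± 3.36%). Gria3 kept the most even share, and Gria1 the least even.

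The TPM of Gria1 was 0.587 times that of Gria2 in replicate 2 and 0.205 times in replicate 1. Gria1 was 2.06 times as high as Gria4 in replicate 2 and 0.622 times as high in replicate 1. By TPM over all transcripts, the libraries thus placed Gria1 and Gria4 in opposite order. Over protein coding transcripts that hold the flip or the flop exon, Gria1 was above Gria4 in both. These had 113.1 against 26.6 TPM in replicate 2 and 50.1 against 32.7 TPM in replicate 1. Counts, which are not divided by length, gave Gria1 26.9% of the family in replicate 2 (95% Clopper-Pearson interval 26.3 to 27.5%) and 10.6% in replicate 1 (10.3 to 10.9%). They gave Gria2 47.1% in replicate 2 (46.5 to 47.8%) and 60.7% in replicate 1 (60.2 to 61.2%). These intervals cover counting error only.

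Of the 4 members, 1, Gria1, was at least 2-fold higher in replicate 2 than in replicate 1, and the other 3 were lower by less than 2-fold. A floor of 1 on mean TPM left 14229 genes, of which 49.3% were past 2-fold, 47.7% higher and 1.65% lower in replicate 2. Their median log2 ratio was 0.88, where a log2 ratio sets TPM + 1 of replicate 2 over that of replicate 1.

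Gria1 was counted 6473 times in replicate 2, against 3814 in replicate 1, with a TPM ratio of 2.26 (95% counting interval 2.17 to 2.35) and a log2 ratio of 1.16. Gria2 had 11347 and 21871 counts, a TPM ratio of 0.786 (0.769 to 0.805) and a log2 ratio of -0.35. Relative to the median gene, Gria1 stood at 0.28 and Gria2 at -1.23 on the log2 scale. Gria1 was thus close to the median of all genes, and Gria2 far under it. Beside genes of like GC content, described below, Gria2 lay within the quartiles and Gria1 above the upper one.

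Gria3, with 4076 and 6380 counts, had a TPM ratio of 0.862 (0.828 to 0.896) and a log2 ratio of -0.21, or -1.09 relative to the median gene. Gria4, with 2174 and 3950 counts, had a TPM ratio of 0.682 (0.647 to 0.719) and a log2 ratio of -0.54, or -1.43 relative to the median gene. With counts scaled by TMM, a trimmed mean that sets the bulk of genes near 0, the log2 ratios were 0.19 for Gria1, -1.52 for Gria2, -1.22 for Gria3 and -1.43 for Gria4. Under that scaling Gria1 was no longer past 2-fold, and the other 3 were past it; 61.2% of all genes were then past 2-fold, 36.5% higher and 24.7% lower, with a median log2 ratio of 0.12. With library totals the values were 0.80, -0.91, -0.61 and -0.82, beside a median of 0.73, and 0 members were past 2-fold beside 53.4% of all genes.

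The ratio between the libraries moved with GC content over all genes, and the 4 members differ in it. The GC content of the transcripts, weighted by TPM, was 48.6% for Gria1, 40.8% for Gria2, 43.0% for Gria3 and 43.8% for Gria4. The 2697 genes with 40 to 45% GC had a median log2 ratio of -0.31 (quartiles -0.55 and -0.07), a range that holds Gria2, Gria3 and Gria4. The 3761 genes with 45 to 50% GC had a median of 0.41 (quartiles 0.08 and 0.79), and Gria1, at 1.16, lay above the upper quartile. With the smooth trend on GC content removed, the log2 ratio was 0.52 for Gria1, 0.17 for Gria2, 0.06 for Gria3 and -0.37 for Gria4, so the sign turned for Gria2 and Gria3. The order of the members was the same as without that step except that Gria2 and Gria3 changed places. The part of GC content in these ratios was not tested.

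**Figure D2:**
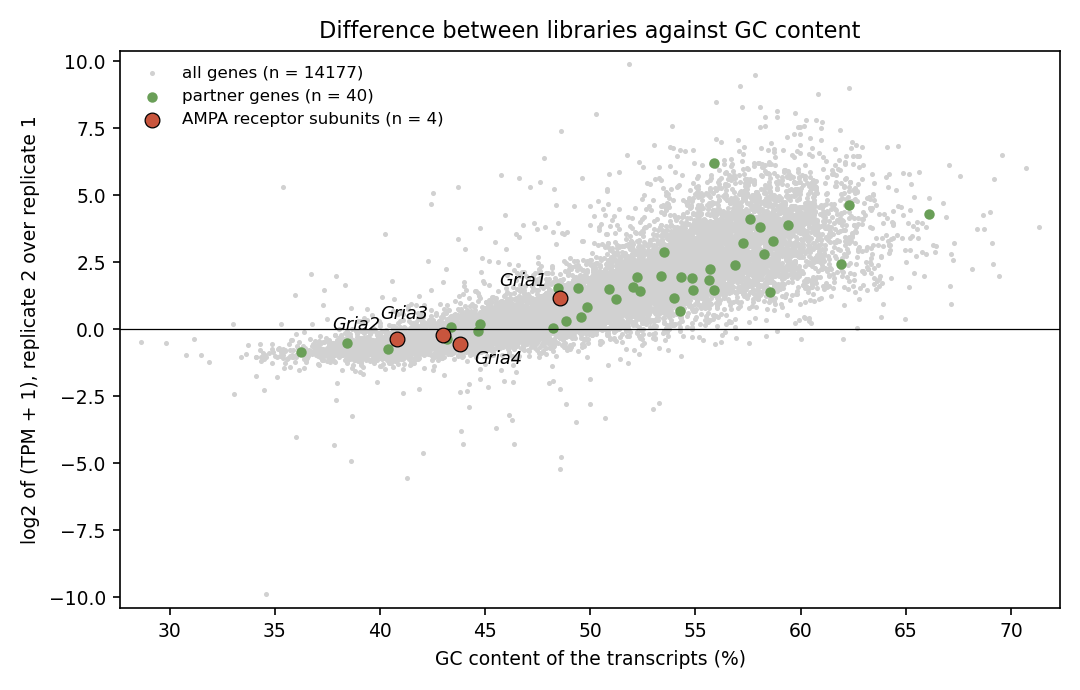
Difference between libraries, as log2 of TPM + 1 in replicate 2 over replicate 1, against the GC content of the transcripts in percent, for 14177 genes at a mean of 1 TPM or more that have a GC content (grey), 40 partner genes (green) and the 4 subunit genes (red). Gria2, Gria3 and Gria4 lie at 40.8 to 43.8% GC with ratios under 0, and Gria1 lies at 48.6% GC with a ratio of 1.16.

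The genes whose levels were most like those of each subunit were taken as the 3 nearest in log2(TPM + 1) over these 2 libraries. For Gria1 they were Fads1 (113.0 TPM in replicate 2 and 50.2 TPM in replicate 1), Fam168b and Atraid, at distances of 0.0023 to 0.061, with GC contents of 50.6 to 52.2%. For Gria2 they were Vdac3 (195.1 and 244.7 TPM), Tbca and Tcp1, at distances of 0.019 to 0.060. For Gria3 they were Ube2k (77.3 and 91.4 TPM), Cdc42bpa and Tmeff1, and for Gria4 Mapk8 (55.5 and 81.3 TPM), Pmpcb and Nae1. Likeness over 2 libraries of 1 mouse is a weak measure, and many genes lie near any such pair of values.

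Each gene's expression was divided among its transcripts. IsoPct is the percent of a gene's TPM that the authors' quantification gave to a transcript. Of the 25 transcripts, 12 had an IsoPct of at least 5 in either library, and these are described singly. The other 13 reached at most 2.48%, and 6 of them were listed at a TPM of 0 in both libraries. Credibility intervals of TPM were deposited around the posterior mean, with no level stated in the sources used here. They did not overlap between the libraries for 10 of the 12 transcripts, 4 of them higher and 6 lower in replicate 2. The same was not counted over all transcripts, so this number does not set these 12 apart from other transcripts.

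Gria1 was made up wholly of full-length transcripts, here meaning protein coding transcripts that hold the flip or the flop exon. The flip transcript Gria1-201 (5546 bases, 16 exons) held 47.6% of Gria1 in replicate 2, against 56.7% in replicate 1 (52.2 ± 6.45%, SD, n = 2). The flop transcript Gria1-202 (5399 bases, 16 exons) held 52.4% and 43.3% (47.8 ± 6.45%). The libraries therefore gave opposite orders of flip and flop for this gene, each near an even split. Both transcripts have 2721 coding bases, last exons of 2802 and 2801 bases at 46.1% GC, and GC contents of 48.5% and 48.6%.

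The TPM of Gria1-202 was 59.2 in replicate 2 and 21.7 in replicate 1, a ratio of 2.73, and its intervals were 49.8 to 59.8 and 16.1 to 24.8. The TPM of Gria1-201 was 53.8 and 28.4, a ratio of 1.89, with intervals of 44.4 to 54.1 and 22.1 to 30.6. Within each library the intervals of flip and flop overlapped in replicate 2, where they ran to 54.1 for flip and began at 49.8 for flop, and in replicate 1, where flip began at 22.1 and flop ran to 24.8. The order of flip and flop of Gria1 was thus not resolved in either library. The other 3 transcripts of Gria1 were at a TPM of 0 in both libraries, with intervals that ended at 2.95 TPM or less in replicate 2 and 1.91 TPM or less in replicate 1.

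Gria2 was divided among 4 main transcripts, and only some encode a whole receptor subunit. The flip transcript Gria2-202 (4026 bases) held 44.1% of Gria2 in replicate 2, against 28.6% in replicate 1 (36.4 ± 11.0%, SD, n = 2). The flop transcript Gria2-201 (10371 bases) held 26.4% and 38.2% (32.3 ± 8.30%). The most abundant transcript was thus flip in replicate 2 and flop in replicate 1. Their intervals did not overlap within a library, at 72.5 to 82.0 TPM for flip against 45.4 to 48.5 for flop in replicate 2, and 61.2 to 69.3 against 86.2 to 89.8 in replicate 1.

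These 2 transcripts of Gria2 differ in more than the exon pair. The last exon of Gria2-201 is 7265 bases long with 32.9% GC, and that of Gria2-202 is 920 bases long with 35.98% GC. In these models most of the long last exon belongs to Gria2-201 alone, so in Gria2 the exon choice and the length of the 3′ end cannot be told apart from these estimates. The GC content of the whole transcript was 36.8% for Gria2-201, whose TPM ratio of replicate 2 over replicate 1 was 0.544, and 43.6% for Gria2-202, whose ratio was 1.21.

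The other main transcripts of Gria2 are annotated as retained introns, end before the flip and flop exons and have no coding sequence. Gria2-206 (3462 bases, 43.1% GC) held 20.2% of Gria2 in replicate 2 and 21.9% in replicate 1 (21.02 ± 1.22%, SD, n = 2), with 38.8 and 53.6 TPM. Gria2-204 (4799 bases, 38.3% GC) held 6.51% and 10.5% (8.5 ± 2.81%), with 12.5 and 25.7 TPM. The 5 retained-intron transcripts together held 27.0% of Gria2 TPM in replicate 2 and 32.4% in replicate 1. Of Gria2 counts, which weight a transcript by its length, they held 17.8% and 19.3%. Gria2-203, which holds both exons and is annotated as a target of nonsense-mediated decay, the removal of RNAs with an early stop codon, was at 2.48% and 0.84%.

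Gria3 was dominated by 1 transcript in both libraries. The flip transcript Gria3-201 (5192 bases) held 72.5% of Gria3 in replicate 2 and 77.0% in replicate 1 (74.7 ± 3.22%, SD, n = 2), with 56.4 and 69.6 TPM. Gria3-206 (5172 bases), which holds both the flop and the flip exon and is annotated as a target of nonsense-mediated decay, held 16.8% and 16.2% (16.5 ± 0.42%). Its share was the most even of the 12 transcripts, and its intervals of 8.00 to 16.9 TPM and 8.76 to 19.1 TPM overlapped.

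Gria3-208 (3645 bases), a retained-intron transcript whose exon includes the flop exon, held 7.83% of Gria3 in replicate 2 and 5.86% in replicate 1. The protein coding flop transcripts Gria3-202 and Gria3-209 had 39.2 and 13.5 counts in replicate 2, against 0 and 0 counts in replicate 1. Both are shorter (3081 and 2667 bases), and no transcript in the tables joins the flop exon alone to the long last exon of Gria3-201 and Gria3-206. The posterior SD of Gria3-206 was 133 counts of 708 in replicate 2 and 202 counts of 1051 in replicate 1, so its level is the least certain of the larger Gria3 transcripts.

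Gria4 was led in both libraries by a short transcript. Gria4-203 (2338 bases, 11 exons) held 51.7% of Gria4 TPM in replicate 2, against 59.4% in replicate 1 (55.5 ± 5.47%, SD, n = 2). It is annotated as protein coding with 1299 coding bases, against 2706 in the full-length transcripts, and it ends upstream of the flip and flop exons in a 590-base last exon of 31.0% GC. Being short, it held fewer of the gene's counts, 30.4% in replicate 2 and 37.5% in replicate 1. Its posterior SD was small, 20.1 of 662 counts and 21.5 of 1481 counts.

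The full-length flop transcript Gria4-201 (5441 bases) held 34.4% of Gria4 in replicate 2 and 39.0% in replicate 1 (36.7 ± 3.23%, SD, n = 2), with 18.9 and 31.4 TPM. The full-length flip transcript Gria4-202 (5441 bases in the tables, 5352 in the reference) held 13.9% and 1.62% (7.78 ± 8.70%), with 7.65 and 1.31 TPM. Its TPM ratio of 5.84 was the highest of the 12 transcripts, while Gria4-201 and Gria4-203 had ratios of 0.602 and 0.593. The counts of Gria4-202 were 436 with a posterior SD of 85.7 in replicate 2 and 98.8 with a posterior SD of 86.4 in replicate 1. Its intervals, 4.599 to 9.98 TPM and 0.18 to 4.21 TPM, lay next to each other without overlap, and in replicate 1 the level was barely above its own error. The GC contents of Gria4-201 and Gria4-202, 44.3% and 44.0%, were nearly the same. Gria4-202 is the 1 transcript whose length differs between the tables and the reference, so its flip exon and its GC content, and with them the flip share of Gria4, rest on the reference model.

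**Figure D3:**
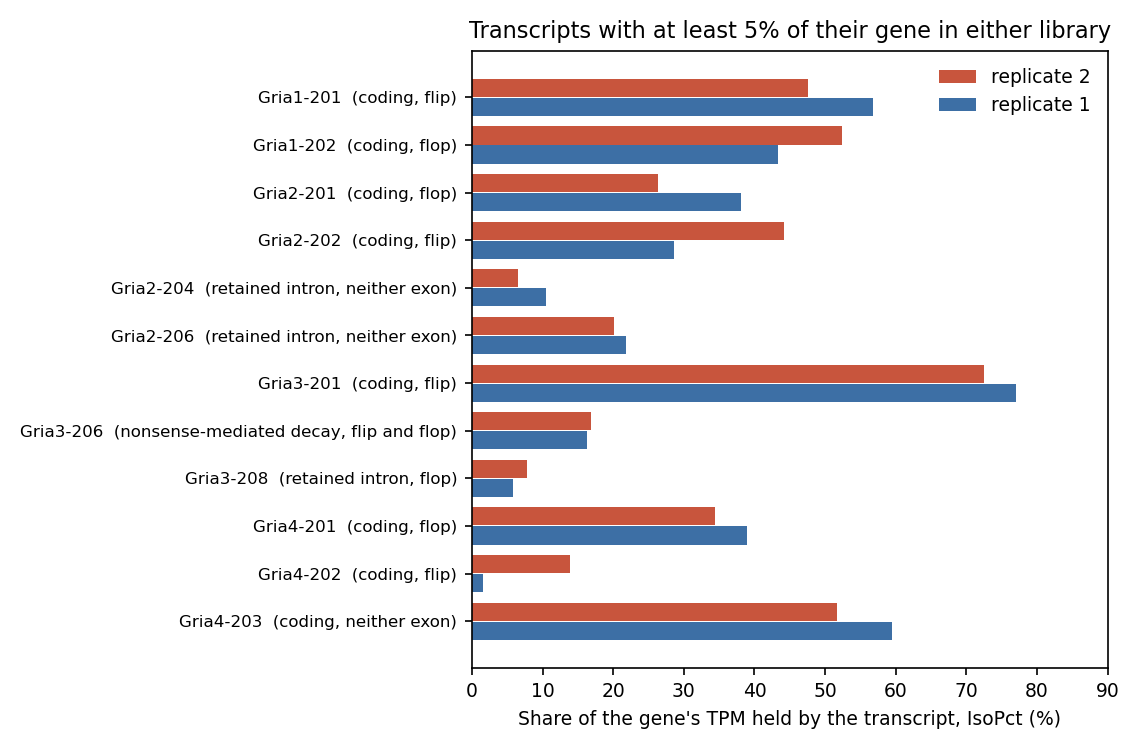
Share of each gene's TPM (IsoPct, percent) held by the 12 transcripts with at least 5% in either library, replicate 2 above replicate 1, with the annotated type and the exon of the pair each one holds. Gria1 is split between flip and flop, Gria3-201 holds over 72% in both libraries, and the short Gria4-203 holds 51.7% of Gria4 in replicate 2 and 59.4% in replicate 1.

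Counting only full-length coding transcripts changed the make-up of the family. Full-length transcripts were 100% of Gria1 in both libraries, 70.5% of Gria2 in replicate 2 and 66.7% in replicate 1, 74.7% and 77.0% of Gria3, and 48.3% and 40.6% of Gria4. Their summed TPM was 113.1 and 50.1 for Gria1, 135.8 and 163.4 for Gria2, 58.2 and 69.6 for Gria3, and 26.6 and 32.7 for Gria4. On this measure Gria1 held 33.9% of the family in replicate 2 and 15.9% in replicate 1, and Gria2 held 40.7% and 51.7%. Gria4 held 7.96% and 10.4%, the lowest share in both libraries, whereas over all transcripts Gria1 was lowest in replicate 1. The full-length TPM ratio of replicate 2 over replicate 1 was 2.26 for Gria1, and 0.831, 0.836 and 0.812 for Gria2, Gria3 and Gria4, so these 3 genes lay closer together than over all their transcripts, where the ratios were 0.786, 0.862 and 0.682.

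The full-length transcripts of each gene share their last coding exon, so the tables hold no alternative C-terminal tail of a full-length subunit, such as the long tail known for GluA2 or the short one known for GluA4.

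The flip share is the TPM of transcripts with the flip exon alone as a percent of those with either exon alone. Gria3 had the highest flip share in both libraries and Gria4 the lowest. The flip share of Gria3 was 87.8% in replicate 2 and 92.9% in replicate 1 (90.4 ± 3.63%, SD, n = 2). That of Gria4 was 28.8% and 4.01% (16.4 ± 17.5%), and in replicate 1 its flip transcript had 98.8 counts with a posterior SD of 86.4. Gria1 had 47.6% and 56.7% (52.2 ± 6.45%), and Gria2 62.6% and 42.8% (52.7 ± 13.9%).

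As point estimates, the flip share was thus higher in replicate 2 for Gria2 and Gria4, and lower for Gria1 and Gria3. For Gria1, the posterior SD of the flip transcript was 145 of 3126 counts in replicate 2 and 178 of 2189 in replicate 1. For Gria3, all flop TPM in replicate 1 (5.3) was that of the retained-intron transcript Gria3-208. The values of Gria3 lay above and those of Gria4 below those of the other genes in both libraries, while the values of Gria1 and Gria2 overlapped. Summed over the 4 genes, flip transcripts had 202.8 TPM and flop transcripts 136.8 TPM in replicate 2, a flip share of 59.7%, against 169.3 and 151.8 TPM in replicate 1, a flip share of 52.7%. These sums include Gria2, where the exon choice and the length of the 3′ end cannot be told apart. The flip share of Gria2 was far lower by counts, so the family share is bound to the use of TPM. The flip exon had a lower GC content than the flop exon in Gria1, Gria2 and Gria3 and a higher one in Gria4, and the part of this in the shares was not tested.

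The flip share of Gria3 depended on the transcripts with both exons or a retained intron. With protein coding transcripts only it was 97.0% in replicate 2 and 100% in replicate 1, and with transcripts that hold both exons counted as flop, a choice made after seeing the data, it was 72.9% and 77.7%. In each of these cases Gria3 still had the highest share of the 4 genes. No Gria3 transcript with the flop exon alone has the long last exon, so this rank rests in part on the transcript models. From expected counts, in which the long flop transcript weighs more, the flip share of Gria2 was 38.6% in replicate 2 and 22.0% in replicate 1.

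**Figure D4:**
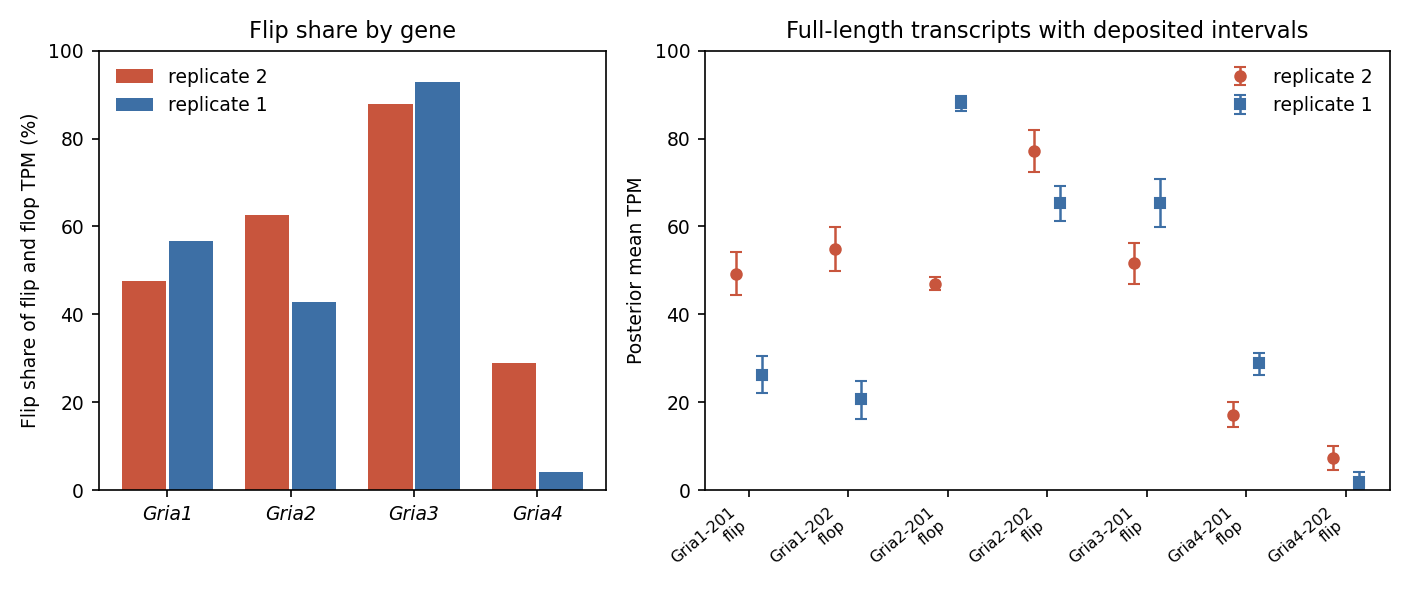
Left, flip share of the summed flip and flop TPM in percent for each gene, replicate 2 left of replicate 1. Right, posterior mean TPM of the 7 full-length transcripts with at least 5% of their gene, with the deposited credibility intervals as bars; flip and flop intervals overlap within a library for Gria1 and are apart for Gria2 and Gria4.

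AMPA receptors work with auxiliary subunits and partner proteins, and 41 such genes in 5 lists were measured in the same libraries, 40 of them at a mean of 1 TPM or more. Of these 40, 28 were at least 2-fold higher in replicate 2, 12 were within 2-fold and 0 were lower, beside 47.7% higher and 1.65% lower among all genes. For the partners the median log2 ratio was 1.53, against 0.88 for all genes, and their median GC content was 53.7%. The 3676 genes with 50 to 55% GC had a median log2 ratio of 1.6 (quartiles 1.07 and 2.25), above the median of the partners. With counts scaled by TMM, 17 were higher and 5 lower, beside 36.5% and 24.7% of all genes, and scaling by library totals gave 27 higher and 2 lower, beside 45.2% and 8.19%. Gria2, Gria3 and Gria4 stood under 0 on every one of these scales, while the median partner and the median of all genes stood above it. This does not set the 3 genes apart from partners of like GC content. Of the partners under 45% GC, Frrs1l, Sacm1l, Dlg1, Olfm3 and Lrrtm2 were under 0 by TPM, and Akap5 (0.21) and Lrrtm4 (0.10) above it. With TMM and with library totals each of these partners was under 0. With the GC trend removed, Gria2 and Gria3 were above 0.

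The 6 TARPs, a family of auxiliary membrane proteins of AMPA receptors, were all at least 2-fold higher in replicate 2 (median log2 ratio 1.73, GC content 50.9 to 66.1%). With TMM 3 of the 6 were higher and 0 lower, and Cacng2 (log2 ratio 0.24), Cacng3 (0.97) and Cacng5 (0.92) were within 2-fold. Among all genes 47.7% were higher and 1.65% lower by TPM, and 36.5% and 24.7% with TMM. Cacng7 had 107.6 TPM in replicate 2 and 6.77 TPM in replicate 1, Cacng3 had 62.1 and 26.8 TPM, and Cacng2, which encodes stargazin, had 25.9 and 11.2 TPM. The summed TPM of the TARPs was 252.3 in replicate 2 and 51.5 in replicate 1, so the level of TARP mRNA beside that of the 4 subunits (438.4 and 465.7 TPM) differed widely between the libraries. Of the 10 other auxiliary subunits, 9 reached a mean of 1 TPM, of which 7 were higher and 0 lower (median 1.97), and with TMM 5 were higher and 1 lower. Cnih2, a cornichon that slows deactivation, had 198.7 and 7.06 TPM, Prrt1 had 85.1 and 14.98 TPM, and Shisa7 had 47.7 and 11.8 TPM.

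Of 13 assembly and trafficking genes, 7 were higher and 0 lower (median 1.44, GC content 40.4 to 58.7%). With TMM 5 were higher and 2 lower. The lower 2 were Frrs1l (-1.34), which acts in receptor assembly, and Sacm1l (-1.74), while Nsf (0.54) and Abhd6 (0.59) were within 2-fold. Beside these stand 47.7% higher and 1.65% lower among all genes by TPM, and 36.5% and 24.7% with TMM. The share of this list that was higher lay near that of all genes on both scales. Nsf, the ATPase that binds the tail of GluA2, had 385 TPM in replicate 2 and 133.2 TPM in replicate 1, Abhd12 had 294.6 and 182.1 TPM, and Epb41l1 had 161.1 and 58.3 TPM. Of 9 extracellular partners, 6 were higher and 0 lower (median 1.46), against 3 higher and 2 lower with TMM, with the highest log2 ratio, 6.19, in a member with 2 counts in replicate 1. Olfm1 had 746.3 and 282.9 TPM, Nptxr, a neuronal pentraxin receptor, had 213.0 and 13.3 TPM, and Nptx1 had 107.6 and 38.5 TPM.

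Of the 3 genes of the adenosine deaminase family that edits RNA, 2 were higher and 0 lower, and with TMM 1 was higher and 0 lower. Among all genes 47.7% were higher by TPM and 36.5% with TMM, and 3 genes are too few to set apart from these shares. Adarb1, whose product edits the Gria2 transcript at the pore site, had 75.2 TPM in replicate 2 and 24.6 TPM in replicate 1. Adar had 64.1 and 7.79 TPM. Adarb2, for which no editing activity is known, had 7.03 and 5.47 TPM. Editing itself cannot be read from these tables.

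**Figure D5:**
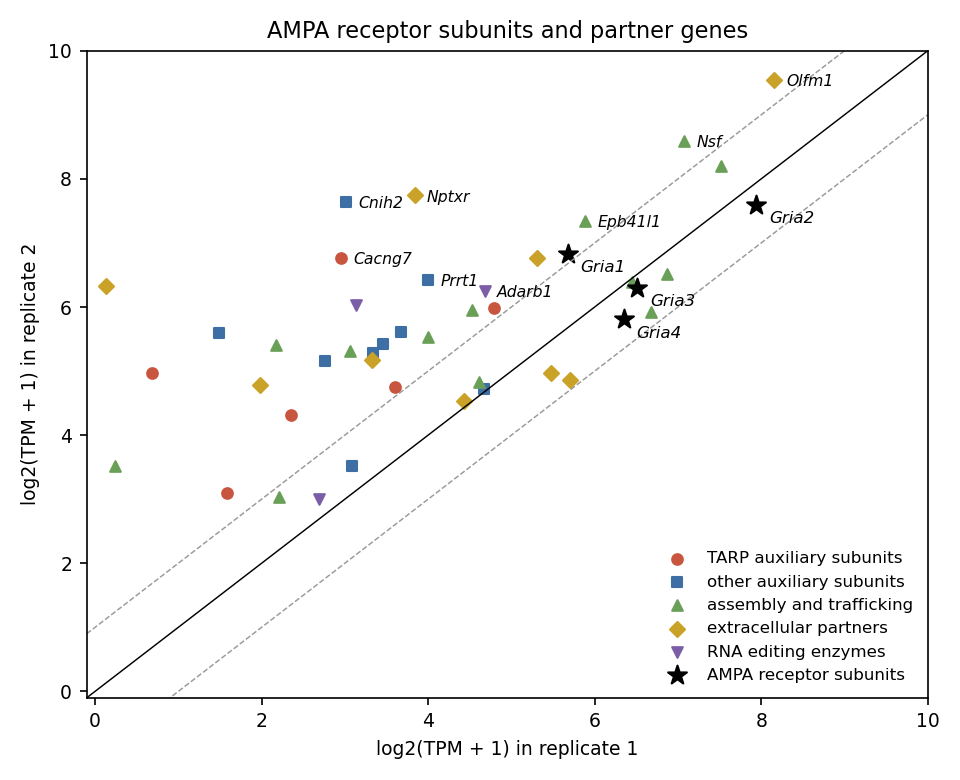
Level of the 40 partner genes in 5 lists and of the 4 subunit genes (stars), as log2(TPM + 1) in replicate 2 (vertical axis) and replicate 1 (horizontal axis), with equality (solid line) and 2-fold differences (dashed lines). Of the partner genes 28 lie above the upper dashed line and 0 under the lower one; Gria1 lies above the upper line, and Gria2, Gria3 and Gria4 lie between the dashed lines.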

How the data were processed

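Poly(A) RNA of brain from 1 mouse was measured in 2 libraries. Per the file headers, expected counts (estimated, need not be whole), TPM and FPKM were deposited by the authors per gene and transcript, and IsoPct, a percent, per transcript. Posterior means, the posterior SD of each count (a score deposited by the authors) and bounds of TPM and effective lengths (read as a signal deposited by the authors) stand beside them. The authors' file listings name mm10 and GENCODE M4; no aligner or quantifier is named there (not given in the sources used here).

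From these were computed means, SDs, shares and log2 of TPM + 1, replicate 2 over replicate 1. Transcript models, GC content, symbols and gene positions came from GENCODE M21 by identifier without version; 24 of 25 transcripts had the same length there. Flip and flop were found as the pair of equal-length coding exons between the same splice sites, and the first in the direction of transcription was called flop. Expected counts were rounded and scaled by TMM (edgeR 4.0.16) or by DESeq2 1.42.0 size factors, with 0.5 added, in R 4.3.3. edgeR's quasi-likelihood and DESeq2 tests could not be fitted with 1 library a side. Counting intervals are exact (Clopper-Pearson, 95%) and cover counting error only. Ratios, intervals and the search for exon pairs were tested on simulated data. The simulated counts had Poisson error, known folds and no GC trend, and were scaled by TMM. This checks the computation only, not its fitness for libraries that differ as these do. Of the deposited rows, 43346 were genes (42462 with a symbol), and 26345 others, with 1 count in replicate 2 and 0 in replicate 1, were left out. The GC trend was a lowess fit (fraction 0.2, statsmodels 0.14.6), with Python 3.11.15.

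Genes named were the 4 members, transcripts at 5% or more, the 3 partners of highest mean TPM per list, and the 3 nearest genes of each member. The partners under 45% GC were named as well. Members and lists were chosen with earlier results of these data known. Alternatives were posterior means, counts, FPKM, other scalings, filters and pseudocounts, and leaving out a library.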

Additional observations from a re-analysis of the deposited data

How the results depend on the processing

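Apart from leaving out a library, 70 values moved by less than the spread or interval set for them and 37 moved by more. Some of the 70 could not move. FPKM rescaled to the same total equals TPM, and Gria1 and Gria4 have no transcript with both exons. With coding transcripts only, the flip shares of Gria1, Gria2 and Gria4 were unchanged because the same transcripts made them up. The tally is thus no measure of stability. No paired analysis was possible because there is 1 group. With mitochondrial genes and their nuclear copy left out of the total, the mean TPM became 147.8 for Gria1, 468.2 for Gria2, 177.6 for Gria3 and 148.0 for Gria4, and the log2 ratios 0.23, -1.29, -1.15 and -1.48. The log2 ratios of Gria1, Gria2, Gria3 and Gria4 were 0.19, -1.52, -1.22 and -1.43 with TMM, 0.18, -1.53, -1.23 and -1.45 with DESeq2 size factors, 0.80, -0.91, -0.61 and -0.82 with library totals, and 0.52, 0.17, 0.063 and -0.37 with the GC trend removed, where Gria2 and Gria3 lay on the other side of 0. Gria1 was past 2-fold with TPM at each pseudocount tried and with posterior mean TPM, and not under these 5 settings. The mean share of Gria3 and Gria4 was 17.3% and 10.0% by counts. The mean flip share of Gria2 was 30.3% by counts, and that of Gria3 98.5% with coding transcripts only and 75.3% with transcripts of both exons as flop. The full-length share of Gria1 was 98.3% by posterior means. Partners at least 2-fold higher numbered 17 with TMM and 17 with DESeq2 size factors, and those lower 5 and 6, and 2 with library totals. Apart from scalings set by their construction, the cause was not tested. With a library left out, a mean becomes the value of the other library, which always lies within 1 SD of the mean of 2 values, so these means say nothing of stability: leaving out replicate 1 or replicate 2 gave the per-library values of the report, 113.1 and 50.1 TPM for Gria1 and 28.8% and 4.01% for the flip share of Gria4.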
